A study of Homo sapiens with 4 samples.

Results

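The myosin light chains and the cardiac light chain kinase comprise 9 of the 23615 gene symbols in the table of FPKM (fragments scaled to transcript length and to the mapped fragments of the library). They were taken by symbol as MYL2, MYL3, MYL4, MYL6, MYL6B, MYL7, MYL12A, MYL12B and MYLK3, a choice of symbols and not of values, though made with earlier results of these data known. All 9 had a mean of at least 1 FPKM and were tested. RNA came from unsorted day 14 cultures of RUES2, a human embryonic stem cell line, so both groups rest on 1 line. Induction in both (A100/B5) used activin A at 100 ng/ml with BMP4 at 5 ng/ml in a monolayer, and the GSK3 inhibitor CHIR-99021 was added around the start of induction. CPC cardiomyocytes came from cardiac progenitor cells. The study's methods have the Wnt/β-catenin inhibitor XAV at 1 µM on day 3 in part of its cardiac experiments. Its results place the XAV of the cardiac protocol at day 3 without that limit. The labels do not say whether these CPC libraries had it. ECsXAV cardiomyocytes came from anterior hemogenic endothelial cells. These were made from day 2 in medium with VEGF, bFGF and further BMP4, and given 2 µM XAV from day 5. Each group had 2 biological replicates. Sample names of the groups start with different codes, and the differentiation experiment and the group cannot be told apart.

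A myosin motor is a heavy chain whose lever arm carries 1 essential and 1 regulatory light chain. Phosphorylation of the regulatory chain by a light chain kinase, and its removal by myosin phosphatase, tune contraction. In the heart the chains have chamber forms. MYL2 is the ventricular and MYL7 the atrial regulatory chain, while MYL3 is the ventricular and MYL4 the atrial and fetal essential chain, and atrial forms are also made in the early ventricle. MYLK3 is the cardiac light chain kinase. MYL6, MYL12A and MYL12B serve nonmuscle and smooth muscle myosin, and MYL6B serves slow skeletal and nonmuscle myosin, so that 4 of the 8 light chains are not chains of the cardiac sarcomere.

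MYL7 had the highest FPKM of the 23615 gene symbols in every library, and MYLK3 encodes the kinase of the set. The 250 bases before the start of each are shown so that the motifs before these genes can be read beside their levels. The sequences are RefSeq promoters of GRCh38.p14, minus strand. MYL7 lies at chr7:44141333-44141582 and MYLK3 at chr16:46748345-46748594, and capitals mark a CArG box (CC and GG around 6 bases that are A or T, the motif of serum response factor) and GATAA (the motif of GATA factors).
MYL7: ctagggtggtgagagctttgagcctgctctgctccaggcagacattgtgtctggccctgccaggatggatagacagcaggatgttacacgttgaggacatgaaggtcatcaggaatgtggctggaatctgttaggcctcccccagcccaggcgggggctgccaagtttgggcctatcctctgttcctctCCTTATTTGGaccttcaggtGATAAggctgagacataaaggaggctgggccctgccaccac
MYLK3: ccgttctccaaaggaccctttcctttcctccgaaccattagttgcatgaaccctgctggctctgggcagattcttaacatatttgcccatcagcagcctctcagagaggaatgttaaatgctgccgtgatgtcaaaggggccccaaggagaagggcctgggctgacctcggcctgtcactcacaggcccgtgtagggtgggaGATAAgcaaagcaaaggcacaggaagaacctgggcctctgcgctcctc
The CArG box of MYL7 ran from base -61 to base -52 before the start and GATAA from -41 to -37. In MYLK3, GATAA ran from -48 to -44. CArG boxes, MEF2 sites, TATAAA and GATAA were searched on both strands, and over 35116 promoter windows of this length they occurred in 1.16%, 2.80%, 10.7% and 20.4%. RefSeq windows were found for 7 members, those other than MYL2 and MYL4, and 6 members had a window at the start of their MANE transcript, the reference transcript of the gene. In the other 4 of those 6 windows (MYL6, MYL6B, MYL12A and MYL12B) none of the 4 motifs was found. At other listed starts, GATAA was in a window of MYL3 (-84 to -80), and a MEF2 site (-158 to -149) and GATAA (-81 to -77) were in a window of MYL12A. A match is a run of letters and was not tested as a binding site.

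Of the closely related pairs, MYL12A and MYL12B shared most of their coding sequence, with 95.2% identity, against 77.8% for MYL3 and MYL4, 62.9% for MYL2 and MYL7 and 57.9% for MYL6 and MYL6B. The longest identical coding run of MYL12A and MYL12B (77 bases, from base 367 of the MYL12A coding sequence) and that of MYL6 and MYL6B (48 bases, from base 130 of the MYL6 coding sequence) are shown, since a read that lies wholly within one fits both genes. A read of 50 bases would be too long for the run of MYL6 and MYL6B.
MYL12A and MYL12B: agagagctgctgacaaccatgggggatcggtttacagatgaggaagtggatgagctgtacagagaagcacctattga
MYL6 and MYL6B: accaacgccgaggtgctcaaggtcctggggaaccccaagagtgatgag
All 50-base windows of the transcript were searched, letter for letter and in the sense direction only, in the transcripts of other genes. Of these windows 12.2% were found for MYL12A, 10.1% for MYL12B, 6.22% for MYL6 and 1.43% for MYLK3, and none for MYL2, MYL3, MYL4, MYL7 and MYL6B. A 50-base read from one of the 4 chamber forms thus matches no transcript of another annotated gene exactly in that direction. In GENCODE release 44 lifted to GRCh37, the MANE transcript of MYL6 shares 89 exon bases with MYL6B on the same strand, MYL6B shares 102 with the antisense MYL6B-AS1, and MYL12A shares 93 with the antisense MYL12-AS1. The study's methods give its separate read counts as made by strand, but the strand setting of the FPKM is not given in the sources used here. Whether reads of the antisense overlaps were separated is therefore unknown. The MANE transcript of MYL6B ends before that of MYL6 starts, so the overlap of these genes on the same strand lies in another MYL6B transcript. Whether the RefSeq transcripts behind the FPKM hold that overlap was not tested, and where they do, its reads cannot be told apart.

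The total depth of the libraries is unknown, as no read counts were used. From the read steps of weakly expressed genes, the depth relative to ECsXAV replicate 1 was 50.1% to 86.9% in the other libraries, lowest in ECsXAV replicate 2. Between 12070 and 12240 genes reached 1 FPKM. Of the cardiomyocyte markers all 8 were tested, with summed levels of 5339 to 5638 FPKM in ECsXAV and 6201 to 6341 FPKM in CPC libraries. MYH6 passed as higher and MYBPC3 as lower in CPC, 5 of the 8 were lower there, and without MYH6 the sums were 4482 to 4783 FPKM in ECsXAV and 4131 to 4440 FPKM in CPC. The endothelial markers summed to 10.8 to 12.3 FPKM in ECsXAV and 10.4 to 12.7 FPKM in CPC libraries, and 2 of 8 were tested. Of the 12 skeletal muscle markers 3 were tested and 4 were listed at 0 in all libraries (MYF5, MYF6, PAX7 and MYH1).

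Among the members, MYL2 fell in CPC cardiomyocytes, and none of the other 8 passed the test. On log2(FPKM + 1), 1 of the 9 members passed the criterion (adjusted p under 0.05 from limma and a fold change over 2), against 2.15% of the 12398 genes tested, and it was lower in CPC, as were 1.44% of all genes. Unadjusted, 4 members had a p under 0.05 from limma, against 18.2% of all genes. Both CPC libraries were below both ECsXAV libraries for 7 members, where 25.4% of all genes were, and above them for 1 member, where 24.4% were. MYL6B overlapped. The median log2 fold change (CPC minus ECsXAV) was -0.37 over the members and -0.0045 over all genes. For 8 of the 9, all but MYL2, the 95% interval from limma lay within 2-fold in either direction.

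**Figure D1:**
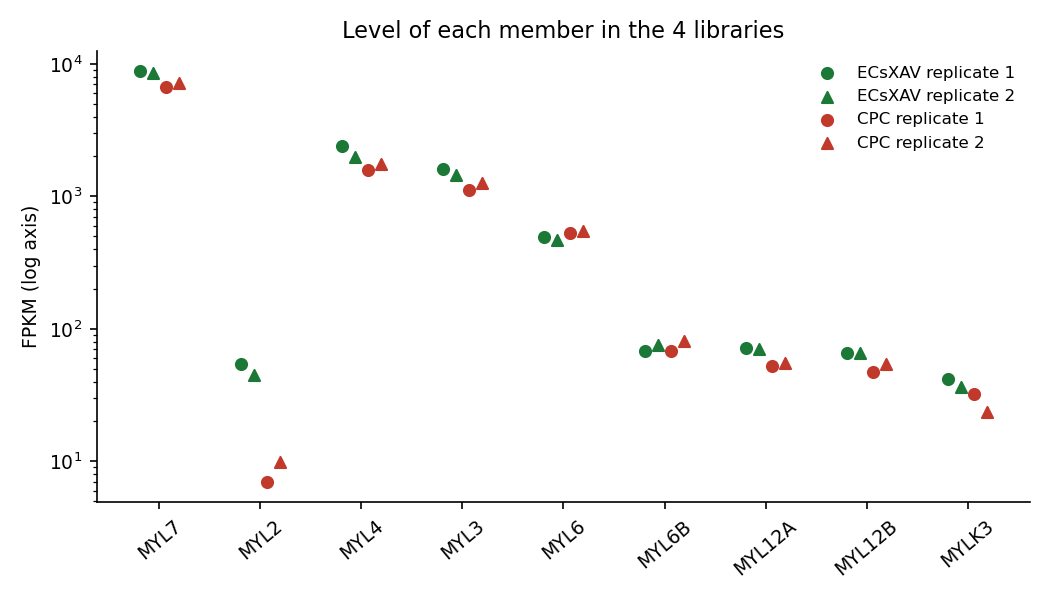
FPKM of the 9 members (log axis) in each library, with ECsXAV in green, CPC in red, circles for replicate 1 and triangles for replicate 2. MYL7 lay highest in all 4 libraries, and MYL2 was at 53.9 and 45.1 FPKM in ECsXAV against 7.04 and 9.92 FPKM in CPC.

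Of the regulatory chains, MYL2 (chromosome 12, 111348649 to 111358383 on GRCh37, minus strand, 7 exons) had 53.9 and 45.1 FPKM in the ECsXAV libraries, against 7.04 and 9.92 FPKM in CPC. The groups did not overlap, and the spread within each was small beside the gap. The mean FPKM was 5.83-fold higher in ECsXAV, and the log2 fold change was -2.42 (standard error 0.19, 95% interval -2.92 to -1.93, adjusted p = 0.0139 from limma). By level, MYL2 ranked 921 and 1207 among all genes in the ECsXAV replicates and 6965 and 5393 in the CPC replicates. Without CPC replicate 1 the adjusted p from limma was 0.0700, without CPC replicate 2 it was 0.0544, and with no filter on low FPKM it was 0.0608, so the call was lost while the direction was not.

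MYL7 (chromosome 7, 44178463 to 44180931, minus strand, 7 exons) had 8786 and 8535 FPKM in the ECsXAV libraries, against 6701 and 7142 FPKM in CPC. It held rank 1 in every library and took 2.90% and 2.70% of the summed FPKM in ECsXAV and 2.35% and 2.37% in CPC. The CPC libraries were lower without overlap, but the log2 fold change of -0.32 did not pass (standard error 0.21, 95% interval -0.87 to 0.22, adjusted p = 0.491 from limma), and quantile normalization, which gives the top gene of every library one value, set it to 0.

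The ventricular form was thus a small part of the regulatory chains in both groups. MYL2 took 0.610% and 0.525% of the summed FPKM of MYL2 and MYL7 in the ECsXAV replicates and 0.105% and 0.139% in the CPC replicates. Each ECsXAV library was above each CPC library. The means were 0.568% ± 0.060 (SD, n = 2) and 0.122% ± 0.024 (SD, n = 2), and the difference of -0.446 percentage points had an exact permutation p of 0.333, two-sided. That is the smallest p that 2 libraries against 2 allow, so no share can pass at 0.05. In bulk RNA, fewer cells that express a gene and less RNA per cell cannot be told apart.

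Of the essential chains, MYL4 (chromosome 17, 45286714 to 45301045, plus strand, 7 exons) had 2394 and 1988 FPKM in the ECsXAV libraries, against 1590 and 1741 FPKM in CPC. MYL3 (chromosome 3, 46899362 to 46904934, minus strand, 7 exons) had 1605 and 1461 FPKM in ECsXAV and 1109 and 1265 FPKM in CPC. Both were lower in each CPC library than in each ECsXAV library, by a similar amount. The log2 fold change was -0.39 for MYL4 (95% interval -0.87 to 0.09, adjusted p = 0.361 from limma) and -0.37 for MYL3 (95% interval -0.80 to 0.06, adjusted p = 0.336 from limma), and neither passed. MYL4 ranked 4 to 7 and MYL3 7 to 13 among all genes.

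The split of the essential chains by chamber form showed no difference beyond the replicate spread. MYL3 took 40.1% and 42.4% of the summed FPKM of MYL3 and MYL4 in the ECsXAV replicates and 41.1% and 42.1% in the CPC replicates. The CPC values lay between the ECsXAV values. The means were 41.2% ± 1.57 (SD, n = 2) and 41.6% ± 0.69 (SD, n = 2), and the difference of 0.34 percentage points had an exact permutation p of 1, two-sided. Its sign turned without ECsXAV replicate 1 (-0.776), without CPC replicate 2 (-0.152) and with quantile normalization (-1.27). The last of these rests on the ranks of MYL3 and MYL4, as quantile normalization sets values by rank. The ventricular share was thus under 1% of the regulatory and over 40% of the essential chains in all 4 libraries.

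**Figure D2:**
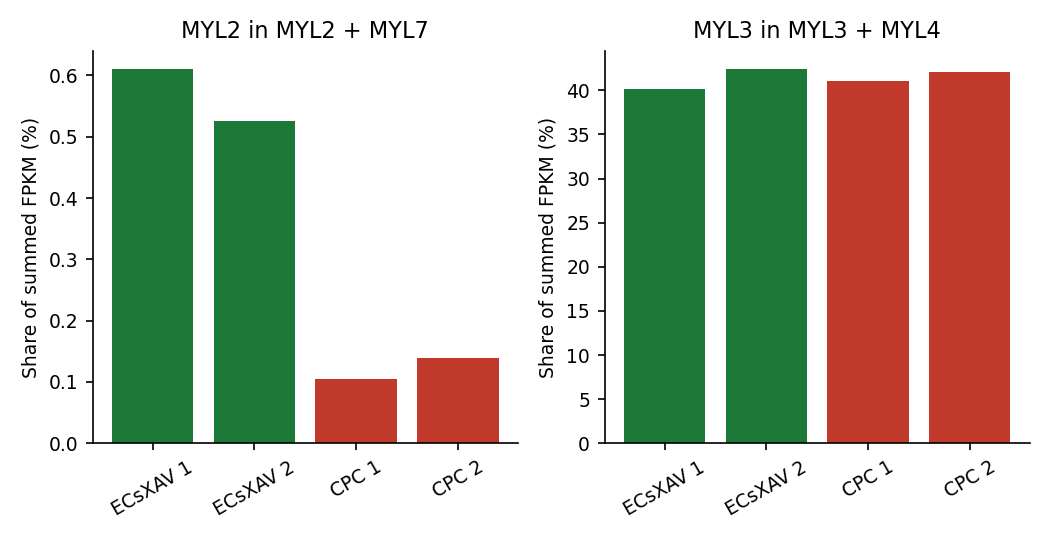
Share of the ventricular form in the summed FPKM of the regulatory chains (left, MYL2) and of the essential chains (right, MYL3), in percent, 1 bar per library, ECsXAV green and CPC red. The MYL2 share was 0.610% and 0.525% against 0.105% and 0.139%, and the MYL3 share stood between 40.1% and 42.4%.

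Summed over both forms, the regulatory chains had 8840 and 8580 FPKM in the ECsXAV libraries, against 6708 and 7152 FPKM in CPC. The essential chains had 4000 and 3449 FPKM in ECsXAV and 2699 and 3006 FPKM in CPC. The cardiac heavy chains MYH6 and MYH7 together had 1866 and 1788 FPKM in ECsXAV and 2217 and 2095 FPKM in CPC, a sum of opposite changes in which MYH6 passed as higher (log2 fold change 1.21) and MYH7 as lower (-2.52). Light chain sums were lower and the heavy chain sum higher in CPC, with no overlap in any of the 3 as deposited or with median-of-ratios scaling. With quantile normalization the heavy chain sum stayed higher in CPC without overlap. The essential sums of ECsXAV replicate 2 and CPC replicate 2 were then equal, at 3027 FPKM. In both, MYL4 ranked 7 and MYL3 ranked 11, and this scaling gives genes of equal rank one value. Quantile normalization gives MYL7 one value in every library, so the regulatory sum could differ only through MYL2. Its difference (CPC minus ECsXAV) was then -40.8 FPKM, against -1780.5 FPKM as deposited. The ratio of regulatory to heavy chain FPKM, which a scaling factor of the library cannot move, was 4.74 and 4.80 in ECsXAV and 3.03 and 3.41 in CPC (exact permutation p = 0.333, two-sided, n = 2 and 2). That of essential to heavy chains was 2.14 and 1.93 in ECsXAV and 1.22 and 1.43 in CPC, with the same exact p. The ratio of regulatory to essential chains overlapped, at 2.21 and 2.49 in ECsXAV and 2.49 and 2.38 in CPC. Light chain transcripts are far shorter than heavy chain transcripts, and the part of length estimation in the ratios to heavy chains was not tested.

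**Figure D3:**
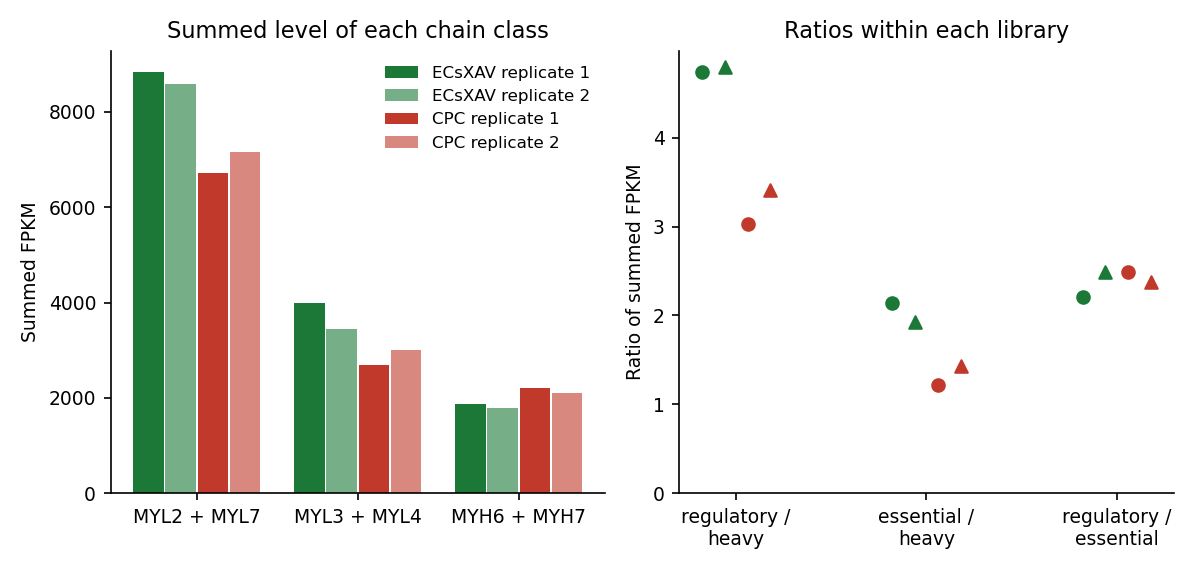
Left, summed FPKM of the regulatory (MYL2 + MYL7), essential (MYL3 + MYL4) and heavy (MYH6 + MYH7) chains, 1 bar per library with replicate 2 paler. Right, ratios of these sums within each library, ECsXAV green and CPC red, circles for replicate 1 and triangles for replicate 2, where the regulatory to heavy ratio was 4.74 and 4.80 against 3.03 and 3.41.

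Of the chains of nonmuscle and smooth muscle myosin, MYL6 (chromosome 12, 56552143 to 56555363, plus strand) had 493 and 467 FPKM in the ECsXAV libraries, against 531 and 548 FPKM in CPC. It was the one member higher in both CPC libraries, with a log2 fold change of 0.17 (95% interval -0.17 to 0.51, adjusted p = 0.561 from limma). Its neighbour MYL6B (chromosome 12, 56546371 to 56551766, plus strand) had 67.8 and 76.0 FPKM in ECsXAV and 68.5 and 81.5 FPKM in CPC. The groups overlapped, at a log2 fold change of 0.06 (95% interval -0.30 to 0.42, adjusted p = 0.873 from limma), and MYL6B took 11.4% to 14.0% of the summed FPKM of MYL6 and MYL6B over the 4 libraries. The sign for MYL6B turned when ECsXAV replicate 1 or CPC replicate 2 was left out, to -0.02 and -0.07.

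The neighbours MYL12A and MYL12B encode nearly identical regulatory chains. MYL12A (chromosome 18, 3247799 to 3256234, plus strand, 4 exons) had 71.6 and 70.3 FPKM in the ECsXAV libraries, against 52.4 and 55.7 FPKM in CPC. MYL12B (chromosome 18, 3262131 to 3278459, plus strand, 4 exons) had 66.2 and 65.7 FPKM in ECsXAV and 47.6 and 54.6 FPKM in CPC. Both were lower in CPC without overlap. The log2 fold change was -0.39 for MYL12A (95% interval -0.66 to -0.11) and -0.37 for MYL12B (95% interval -0.67 to -0.06), and with adjusted p of 0.149 and 0.204 from limma neither passed. As reads of their shared runs fit both, the division between them is uncertain. Their sum, at 138 and 136 FPKM against 100 and 110 FPKM, was also lower in CPC. Of the 50-base windows of MYL12A, 12.2% were found in any other gene and 8.36% in MYL12B. For MYL12B these were 10.1% and, in MYL12A, 6.82%, so reads that fit further genes can still enter the sum. MYL12A took 50.5% to 52.4% of that sum over the 4 libraries.

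Some members have several transcripts in the transcript table. For MYL12B, NM_001144945 took 67.3% and 38.6% of the gene's FPKM in the ECsXAV replicates and 13.05% and 21.7% in the CPC replicates. NM_033546 took 30.4% and 61.4% in ECsXAV and 87.0% and 75.0% in CPC. The groups did not overlap, but the ECsXAV replicates differed from each other by more than the nearest values of the 2 groups did. MYL4 was nearly all NM_002476, at 99.1% to 99.5%, and MYL6 mostly NM_079423, at 91.1% to 96.4%. MYL2, MYL3, MYL7, MYL12A and MYLK3 each have 1 transcript.

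The sarcomeric chains made up 94.8% and 94.7% of the summed FPKM of the 8 light chains in the ECsXAV replicates and 93.1% and 93.2% in the CPC replicates. In the order of levels MYL7, MYL4, MYL3 and MYL6 came first to the fourth place in every library, and the values of MYL6B, MYL12A and MYL12B in ECsXAV lay within 65.7 to 76.0 FPKM, with overlap between MYL6B and MYL12A. In CPC, MYL12A and MYL12B overlapped and MYL6B stood above both. MYL2 stood above MYLK3 in both ECsXAV libraries and below it in both CPC libraries.

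MYLK3 (chromosome 16, 46736194 to 46782256, minus strand, 13 exons) had 41.7 and 36.7 FPKM in the ECsXAV libraries, against 32.4 and 23.7 FPKM in CPC. Both CPC values were lower, and CPC replicate 2 was lowest. The log2 fold change of -0.48 did not pass (standard error 0.18, 95% interval -0.95 to -0.02, adjusted p = 0.261 from limma). It was -0.27 without CPC replicate 2 and -0.70 without CPC replicate 1. The other light chain kinases of muscle were listed far lower. MYLK, of smooth muscle, had 0.475 and 0.541 FPKM in ECsXAV and 0.219 and 0.138 FPKM in CPC. MYLK2, of skeletal muscle, was at 0 in all libraries but ECsXAV replicate 2 (0.0348 FPKM), and MYLK4 was at 0.153 to 0.422 FPKM. These 3 were below the filter and were chosen after their values were seen.

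**Figure D4:**
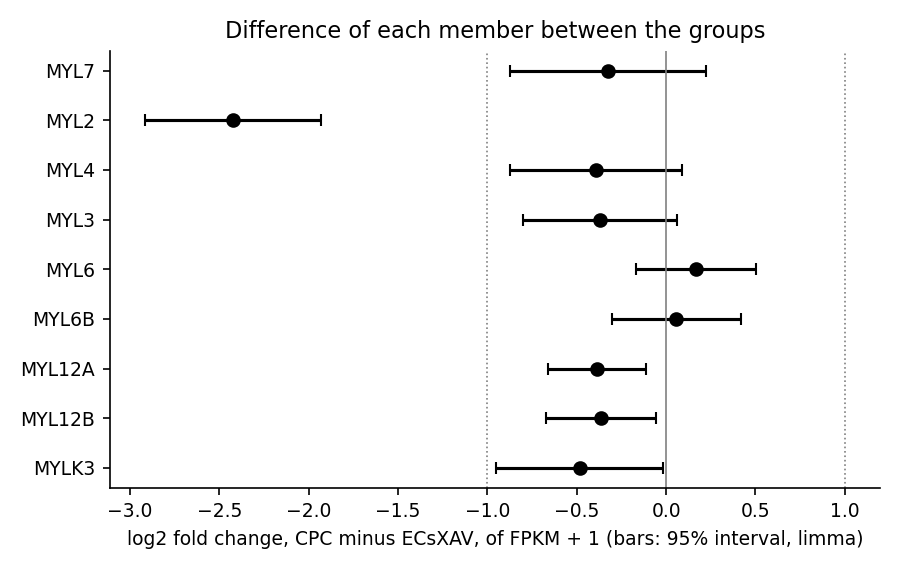
Log2 fold change of each member on log2(FPKM + 1), CPC minus ECsXAV, with its 95% interval from limma, a solid line at 0 and dotted lines at 2-fold. The interval of MYL2 (-2.92 to -1.93) lay wholly beyond 2-fold, and the intervals of the other 8 lay within it.

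Genes that act with the members were gathered in 4 lists of 31 genes, of which 24 were tested. None passed the criterion, and 3 had an unadjusted p under 0.05 from limma (18.2% of all genes did). In CPC 18 were lower and 6 higher, with a median log2 fold change of -0.07. Of all 12398 genes tested, 6292 were lower and 6106 higher in CPC, with a median of -0.0045. Among 5 further light chain genes 2 were tested and none passed. MYL9, the smooth muscle regulatory chain, had 486 and 409 FPKM in the ECsXAV libraries, against 339 and 417 FPKM in CPC, with overlap. MYL5 stood at 16.9 and 17.0 FPKM against 18.0 and 20.1 FPKM. The fast skeletal chains MYLPF and MYL1 were at no more than 1.12 FPKM and 0.0857 FPKM in any library, and MYL10 was listed at 0.

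Of 13 kinase and calmodulin genes 9 were tested, 8 lower and 1 higher in CPC, and none passed. CALM2 and CALM3 encode calmodulin, the calcium sensor of light chain kinases. CALM3 had 121 and 126 FPKM in ECsXAV and 118 and 136 FPKM in CPC, and CALM2 had a log2 fold change of -0.18. RHOA, the small GTPase that acts through the kinases ROCK1 and ROCK2, had 148 and 149 FPKM against 141 and 149 FPKM.

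All 9 phosphatase genes were tested, 6 lower and 3 higher in CPC, and none passed. PPP1R12B, a targeting subunit abundant in striated muscle, had 123 and 122 FPKM in ECsXAV and 140 and 117 FPKM in CPC. The catalytic subunit PPP1CC had 131 and 134 FPKM against 107 and 99.0 FPKM, and the phosphatase inhibitor PPP1R14C had 89.2 and 83.6 FPKM against 57.5 and 68.6 FPKM. Both were lower in CPC without overlap, at -0.37 and -0.45, and missed the threshold (adjusted p of 0.180 and 0.172 from limma).

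The 4 genes of myosin folding and light chain turnover were tested and none passed. SMYD1, a muscle lysine methyltransferase that binds myosin, had 300.5 and 293 FPKM in ECsXAV and 285 and 281 FPKM in CPC, and the muscle myosin chaperone UNC45B had 79.9 and 78.1 FPKM against 79.4 and 72.0 FPKM. UNC45A, its general form, had a log2 fold change of -0.08. MYLIP, a ubiquitin ligase that binds light chains, had 7.92 FPKM in both ECsXAV libraries and 10.7 and 9.51 FPKM in CPC, which gave 0.31 on the log2 scale (adjusted p = 0.250 from limma).

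**Figure D5:**
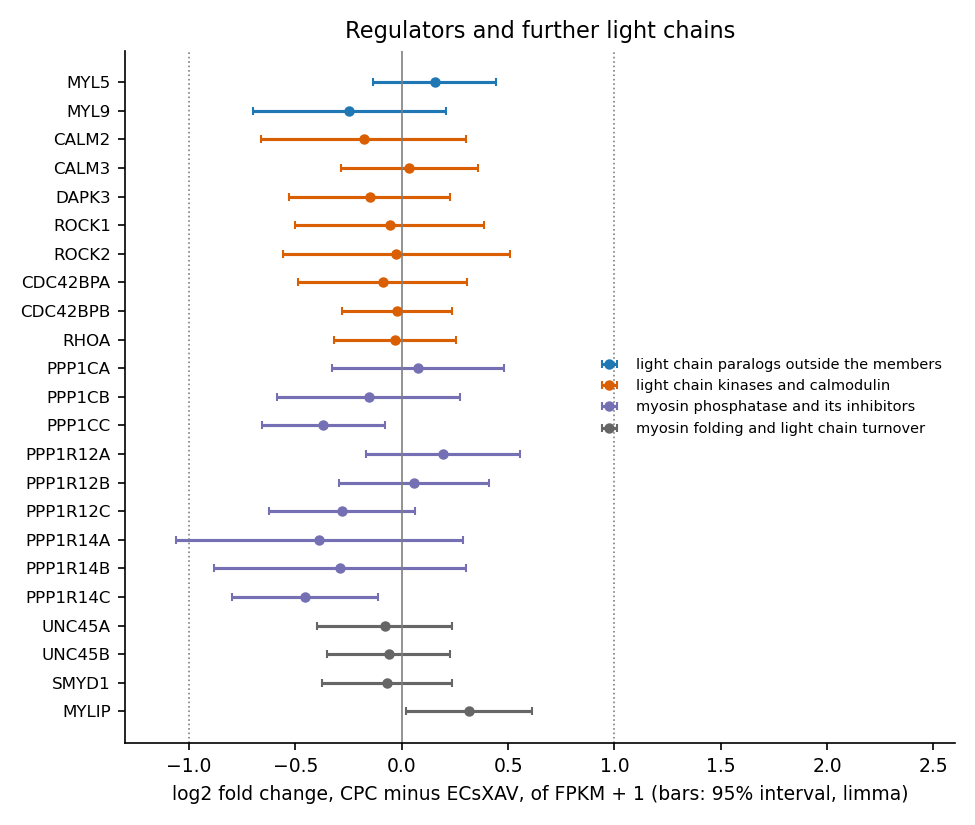
Log2 fold change on log2(FPKM + 1), CPC minus ECsXAV, with 95% intervals from limma, for 23 of the 24 tested genes of the 4 lists, coloured by list, with a solid line at 0 and dotted lines at 2-fold. None passed the criterion, and PPP1R14C had the largest difference at -0.45.

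Summed levels differed between the groups for the fibroblast, smooth muscle, hepatic and endoderm, and skeletal muscle marker lists, while those of the endothelial list overlapped. The fibroblast markers summed to 191 to 226 FPKM in ECsXAV and 105 to 107 FPKM in CPC libraries, and 3 of 6 tested passed as lower in CPC (COL1A1, COL3A1 and LUM). Of the 6 tested, 4 were lower in CPC and 2, PDGFRA and POSTN, were higher without passing. The smooth muscle markers summed to 287 to 315 FPKM against 173 to 198 FPKM, and 1 of 5 passed as lower (TAGLN), while 2 others were lower and 2 higher without passing. The sums without TAGLN were 179 to 199 FPKM against 157 to 175 FPKM. MYH11, their defining heavy chain, was below the filter and went the other way, at 0.0844 and 0.154 FPKM in ECsXAV against 0.351 and 0.433 FPKM in CPC. The hepatic and endoderm markers summed to 30.7 to 36.7 FPKM against 16.6 to 18.5 FPKM, and 2 of 3 passed as lower (AFP and TTR). The skeletal muscle markers summed to 8.15 to 8.33 FPKM against 25.7 to 29.5 FPKM, and 1 of 3 passed as higher (TNNC2), at 2.92 and 3.01 FPKM against 22.9 and 25.0 FPKM. Without TNNC2 the sum was lower in CPC, at 5.23 to 5.32 FPKM against 2.82 to 4.47 FPKM. Their part in the levels of the members was not tested.

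The genes nearest to MYL2 in profile, by the root mean square difference of centred log2(FPKM + 1) over the 4 libraries, included MYH7 (0.067) and TAGLN (0.070). For MYL3 they were PAK6 (0.0061), SLC24A6 (0.021) and GLA (0.022), all below 4 FPKM in every library, so that the added 1 shrank their differences.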

How the data were processed

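Poly-A RNA-seq (Illumina TruSeq) of 4 libraries was used, grouped by the sample labels. The deposited values are FPKM per gene and per RefSeq transcript, computed by the authors with Cufflinks. The submitters' processing notes name TopHat 1.3.3, Cufflinks and hg19. The strand setting of the FPKM and the scaling between libraries are not given in the sources used here. Short transcripts and reads that fit several genes can shift FPKM.

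From these, log2(FPKM + 1) was fitted with limma 3.58.1 (intensity trend, group as the only term) in R 4.3.3 across 12398 genes whose mean FPKM was at least 1, with Benjamini-Hochberg adjustment. The added 1 understates the change of low genes. Where a symbol had several loci, its highest entry was taken. A gene passed with an adjusted p under 0.05 if it also changed by over 2-fold. Shares and ratios were taken within each library and compared by exact permutation tests (SciPy 1.17.1). The fit was tested on simulated data.

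Coordinates came from GENCODE release 44 lifted to GRCh37, promoters from RefSeq, and identities from Biopython 1.88 alignments. The members and lists were chosen with earlier results of these data known. Named genes, some of which are not reported here, are the members, in each list the 3 with the highest mean FPKM and the one with the largest change, genes past the criterion, and the 3 nearest profiles of MYL2 and MYL3. Alternatives were another pseudocount, filter, scaling or variance prior, a replicate block, short RNA genes left out, the transcript table, and each library left out.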

Additional observations from a re-analysis of the deposited data

How the results depend on the processing

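MYL2 was lower in CPC under all 12 alternatives (log2 fold change -2.64 to -2.20, adjusted p 0.000231 to 0.0700 from limma). It was the 1 member past the criterion in 9 of them, and no member passed (0) with no filter on low FPKM, while leaving out 1 library gave 0 to 1 members, 0 without CPC replicate 1 and 0 without CPC replicate 2. A lone library is then assumed to vary like the other group. The MYL2 share difference was -0.523 percentage points with quantile normalization and -0.488 to -0.404 with a library left out. For the MYL3 share it was -1.27 with quantile normalization and ran from -0.776 to 1.45 with a library left out, negative at -0.776 without ECsXAV replicate 1 and -0.152 without CPC replicate 2. MYL6B ran from -0.066 to 0.18 with a library left out, with -0.023 without ECsXAV replicate 1 and -0.066 without CPC replicate 2. MYL7 was at 0 under quantile normalization. MYLK3 ran from -0.70 to -0.27 and MYL4 from -0.52 to -0.26 with a library left out, and quantile normalization gave -0.22 for MYL4 and 0.35 for MYL6. The 6 members other than MYL2, MYL6B and MYL7 kept their direction and no regulator passed under any of the 12. The causes were not tested.

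The replicate numbers are shared by the groups, and the labels name no shared batch. The replicate 1 minus 2 differences of the groups correlated across genes at 0.356 (Spearman) and 0.035 (Pearson). With the replicate block 1 member passed, MYL2 at -2.42 (adjusted p = 0.0388 from limma), and no call among the members or regulators changed. Over all genes, 266 passed (33.1% higher in CPC), 176 with the block, 152 with a mean FPKM of at least 5, 20 with no filter (60.0% higher), and 159 (44.03%), 127, 59 (66.1%) and 85 (72.9%) without ECsXAV replicates 1 and 2 and CPC replicates 1 and 2. The block cannot move a difference of group means here, only its error. The number of libraries limits the precision.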

Other observations

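Other chamber markers were measured beside the light chains. Of the 4 ventricular markers 2 passed the criterion, where 2.15% of all genes tested did. These were MYH7 and MYL2, the latter being the member already counted above. The transcription factors IRX4 and HEY2 had log2 fold changes of -0.77 (adjusted p = 0.103 from limma) and -1.10 (adjusted p = 0.0706 from limma). Neither passed, and both were lower in CPC without overlap, as were 25.4% of all genes tested. IRX4 had 19.96 and 23.2 FPKM in the ECsXAV libraries, against 10.5 and 14.1 FPKM in CPC, and HEY2 had 46.8 and 47.6 FPKM against 17.6 and 26.2 FPKM. Of the 8 atrial markers, MYL7 and MYL4 among them, 5 were tested and 1 passed. NPPA, which encodes atrial natriuretic peptide and is also made in the embryonic ventricle, fell from 264 and 331 FPKM in ECsXAV to 26.1 and 32.4 FPKM in CPC (log2 fold change -3.30, adjusted p = 0.00605 from limma). SLN, the atrial regulator of the calcium pump, had 1.54 and 2.39 FPKM against 3.34 and 6.10 FPKM (adjusted p = 0.192 from limma), and the atrial potassium channel gene KCNA5 overlapped between the groups. NR2F1, NR2F2 and KCNJ3 were below the filter. These genes were chosen with earlier results of these data known.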
